A study of Mus musculus with 6 samples.

Results

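The insulin-like growth factor (IGF) genes examined here are *Igf1*, its receptor *Igf1r*, the IGF2 receptor *Igf2r* and the binding proteins *Igfbp2* to *Igfbp7*, 9 genes in all, taken by symbol from the 32286 genes listed for each library. They were measured by single-cell RNA sequencing (scRNAseq) of digits in a dish (DID) cultures, in which dissociated cells of the distal forelimb bud reassemble into digit- and joint-like structures. All cultures were seeded with mesenchyme pooled from wildtype CD-1 embryos at E11.5, grown in medium with fetal bovine serum and given no other treatment. They were taken at Day 2, Day 7 or Day 10 of culture, and the sample labels name no batch. Replicates A and B of each day were independent cultures, so n = 2 per day and 6 libraries in total.

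After the study's cell filters the libraries held between 9448 and 16486 cells and between 178022112 and 260245417 unique molecular identifiers (UMIs, each a captured transcript). The filters' ceiling on mitochondrial reads was 25% at Day 2, 30% at Day 7 and 40% at Day 10, so the rule for keeping cells differed between days. Day 2 replicate B was the shallow library, with a median of 3871 UMIs per cell against 18587 in Day 2 replicate A, and 41.4% of its cells had fewer than 3000 UMIs. Pairs of libraries shared between 24 and 67 cell barcodes, at most 0.543% of a library. The 2 replicates of a day differed by a factor of up to 1.37 at Day 2, 1.19 at Day 7 and 1.21 at Day 10 over the members other than *Igfbp6* at Day 2, which rested on few UMIs. Summed UMIs from a whole culture cannot tell fewer cells of a type apart from less RNA per cell.

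IGF1 is a secreted growth factor that acts through the tyrosine kinase receptor IGF1R and drives growth of the skeleton, muscle and tendon. IGF2R, also the cation-independent mannose-6-phosphate receptor, binds IGF2 and carries it and lysosomal enzymes to lysosomes. IGFBP2 to IGFBP6 bind the ligands with high affinity and hold them in the extracellular fluid or matrix, from which proteases such as PAPPA release them, while IGFBP7 is a related secreted protein with low affinity for IGFs.

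In whole cultures, the ligand *Igf1* and its receptor *Igf1r* moved in opposite directions between Day 2 and Day 7. The receptor's fall was lost when cells were thinned to an equal number of UMIs (log2 0.07). *Igfbp6* had the largest change, and *Igfbp4* rose at both steps. The 300 bases around the start sites of these 4 members are shown because their values are the ones the results turn on. Each runs 5′ to 3′ from 250 bases before to 50 bases after the RefSeq start site in GRCm38.p6, all on the plus strand, at chr10:87860861-87861160 for *Igf1*, chr7:67952007-67952306 for *Igf1r*, chr11:99040994-99041293 for *Igfbp4* and chr15:102143936-102144235 for *Igfbp6*. Capitals mark a TATA box, read as TATAAA on either strand, or a GC box, read as GGGCGG on either strand.
Igf1: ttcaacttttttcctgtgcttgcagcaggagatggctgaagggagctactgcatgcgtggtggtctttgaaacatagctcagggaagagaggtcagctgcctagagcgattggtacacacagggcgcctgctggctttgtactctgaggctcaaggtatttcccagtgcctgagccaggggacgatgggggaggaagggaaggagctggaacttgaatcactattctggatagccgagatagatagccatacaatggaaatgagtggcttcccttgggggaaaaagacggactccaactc
Igf1r: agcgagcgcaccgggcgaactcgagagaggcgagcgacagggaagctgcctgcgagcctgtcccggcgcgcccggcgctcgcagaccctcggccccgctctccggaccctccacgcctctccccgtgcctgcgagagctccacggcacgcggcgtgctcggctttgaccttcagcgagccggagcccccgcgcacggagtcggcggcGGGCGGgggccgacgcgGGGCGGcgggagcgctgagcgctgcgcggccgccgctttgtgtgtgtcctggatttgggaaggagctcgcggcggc
Igfbp4: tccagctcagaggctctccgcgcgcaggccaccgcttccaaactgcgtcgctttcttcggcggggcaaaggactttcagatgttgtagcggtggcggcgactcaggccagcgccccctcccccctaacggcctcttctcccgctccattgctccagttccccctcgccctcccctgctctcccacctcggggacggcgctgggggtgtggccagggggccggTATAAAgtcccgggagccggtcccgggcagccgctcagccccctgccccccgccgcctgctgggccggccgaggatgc
Igfbp6: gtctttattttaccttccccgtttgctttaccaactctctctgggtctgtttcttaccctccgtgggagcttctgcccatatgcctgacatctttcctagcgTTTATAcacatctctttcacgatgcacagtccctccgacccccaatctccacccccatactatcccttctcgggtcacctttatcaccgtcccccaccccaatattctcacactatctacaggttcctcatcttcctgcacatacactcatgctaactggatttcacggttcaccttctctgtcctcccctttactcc

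The *Igf1* window held neither motif and had a GC content of 52.3%, close to the median of 52.7% over all 32851 windows of this length. It lies inside the annotated gene, which starts at 87858265, so it shows a start site downstream of the gene's first base. The *Igf1r* and *Igfbp6* windows end before the annotated gene starts, 67952827 and 102144362. The *Igf1r* window had a GC content of 76.0% and held 2 GC boxes, the first at position -43 from the start site. A TATA box lay at position -28 in *Igfbp4* and at position -148 in *Igfbp6*, whose window had a GC content of 49.7%. Among the other members, GC boxes were found in *Igf2r* (3 matches), *Igfbp7* (4 matches) and *Igfbp2* (3 matches), and none in *Igfbp3* or *Igfbp5*. Over all windows, 13.62% held a TATA box and 35.66% a GC box on either strand. A FOXO motif (GTAAACA, in 3.65% of all windows) was in no member's window, and an AP-1 motif (TGACTCA, in 5.2%) was in 1 of the 2 windows of *Igfbp2*. These are matches of letters and were not tested as sites.

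In the genome, the deposited identifiers place *Igfbp2* (1, 72824503 to 72852474, plus strand) and *Igfbp5* (1, 72857932 to 72874884, minus strand) tail to tail 5.5 kb apart on chromosome 1 of GRCm38. *Igfbp3* (11, 7206086 to 7213923, minus strand) lies 3.5 kb from *Igfbp1* on chromosome 11. *Igf1* spans 78.8 kb of chromosome 10 and *Igf1r* 280.8 kb of chromosome 7.

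To determine how the IGF genes changed as the cultures grew, UMIs were summed over the cells of each library and compared between days with edgeR's quasi-likelihood test. Values for whole cultures are CPM, a gene's share of all UMIs expressed as counts per 1000000 after TMM scaling, and a gene was called at an adjusted p under 0.05. Between Day 2 and Day 7, 8 of the 9 members rose and 1, *Igf1r*, fell. Between Day 7 and Day 10, 4 rose, 1 fell and 4 were not called. From Day 2 to Day 10, 7 rose, 1 fell and 1 was not called. Calls were common in all 3 comparisons, with 70.3%, 52.2% and 77.3% of the 18987 tested genes called, and the 9, 5 and 8 members called are to be read against these shares. The members' median log2 fold change was 0.91, 0.24 and 1.32, where the median over all genes was 0.01, -0.02 and 0.0. On library totals without TMM, an alternative chosen after seeing the data, the median of all genes moved to -0.27, 0 and -0.26, and the split of all genes into higher and lower calls went from 35.7% and 34.6% to 24.5% and 49.1% at Day 7 and from 39.0% and 38.2% to 28.8% and 49.2% at Day 10, both against Day 2. The counts of members higher, lower and not called were then 8, 1 and 0 from Day 2 to Day 7, 4, 1 and 4 from Day 7 to Day 10, and 7, 2 and 0 from Day 2 to Day 10, where *Igf2r*, not called after TMM scaling, was called lower (log2 -0.24, adjusted p = 0.0302).

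**Figure D1:**
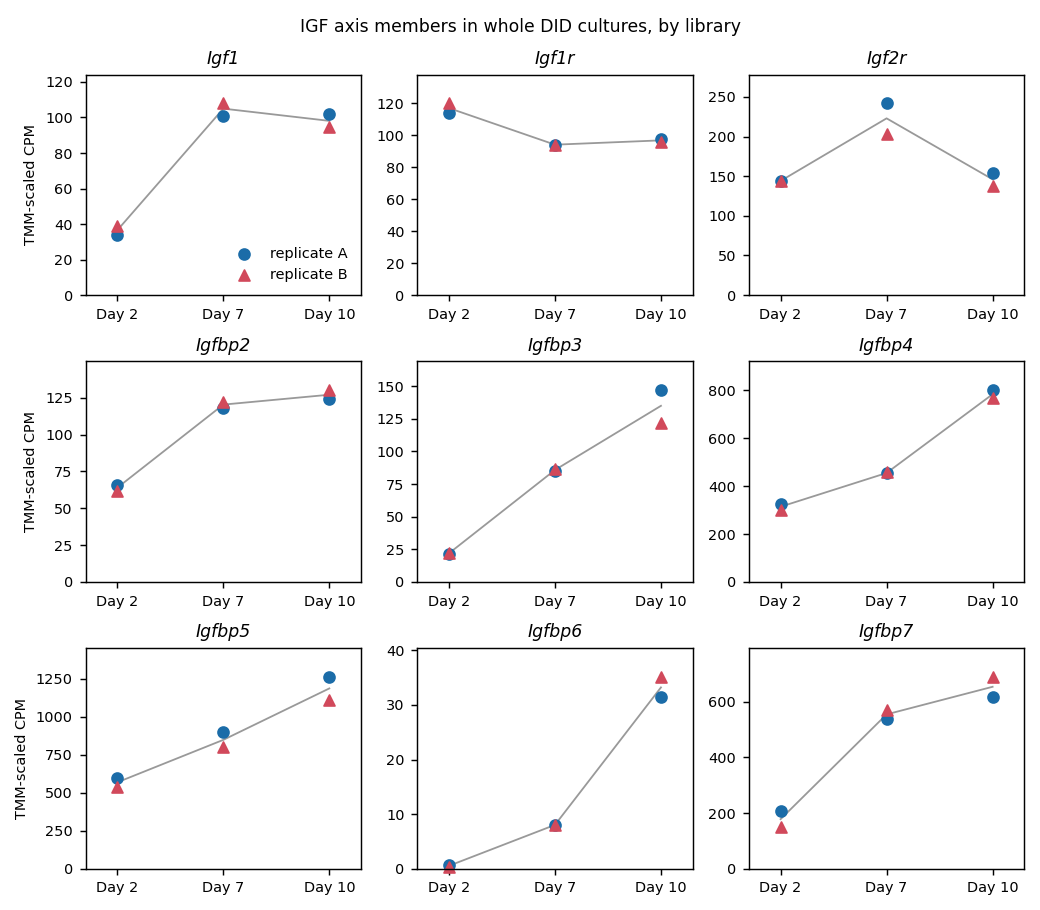
Each panel plots 1 member in TMM-scaled CPM from 0 against the day of culture, with a circle or triangle for each replicate library and a grey line through the means (n = 2). *Igfbp6* climbs from under 1 CPM to 31.4 and 35.1 CPM, while *Igf1* steps up between Day 2 and Day 7 and then stays near 100 CPM.

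*Igf1* was at 34.0 and 38.9 CPM in the Day 2 replicates, 101 and 108 CPM at Day 7, and 102 and 94.7 CPM at Day 10. The Day 2 libraries lay below all the later ones, and the Day 7 and Day 10 libraries overlapped. The rise to Day 7 was 2.87-fold (log2 1.52 ± 0.075 SE, adjusted p = 3.24e-07), and the later difference was within the spread of the replicates (log2 -0.09 ± 0.073, adjusted p = 0.321).

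*Igf1r* was the member that fell, from 114 and 120 CPM at Day 2 to 94.2 and 94 CPM at Day 7 (log2 -0.32 ± 0.049, adjusted p = 0.000381). At Day 10 it was at 97.8 and 95.9 CPM, not called against Day 7 (adjusted p = 0.496). The fall depended on how deep cells were weighted. When cells were thinned to 1000 UMIs before summing, the Day 7 change was 0.07 (adjusted p = 0.511) and the Day 10 change against Day 2 was 0.09 (adjusted p = 0.38). Thinning left out the cells under 1000 UMIs, 120 in Day 2 replicate A, 205 in Day 10 replicate A and 121 in Day 10 replicate B.

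*Igf2r* rose and came back. It was at 144 CPM in both Day 2 replicates, 242 and 203 CPM at Day 7, and 154 and 138 CPM at Day 10, so the Day 7 libraries stood above the rest and the Day 2 and Day 10 libraries overlapped. The rise was 1.54-fold (log2 0.63 ± 0.087, adjusted p = 0.00019) and the fall 1.52-fold (log2 -0.61 ± 0.087, adjusted p = 0.000635).

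*Igf2*, the ligand that IGF2R clears and no member itself, took the same course, with 1114 and 1177 CPM at Day 2, 2085 and 1993 CPM at Day 7, and 1103 and 1041 CPM at Day 10. Its log2 fold change was 0.83 ± 0.07 to Day 7 (adjusted p = 7.9e-06) and -0.93 ± 0.07 from there to Day 10 (adjusted p = 3.31e-05). At Day 10 *Igf2* did not differ detectably from Day 2 (log2 -0.1, adjusted p = 0.235), but was called lower on library totals without TMM (-0.36, adjusted p = 0.00111).

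Among the binding proteins, *Igfbp6*, which favours IGF2 over IGF1, changed by the largest factor. It was at 0.701 and 0.379 CPM at Day 2, from only 162 and 77 UMIs, at 7.97 and 8.09 CPM at Day 7 and at 31.4 and 35.1 CPM at Day 10. No library of one day overlapped another day. The gains were 14.6-fold (log2 3.87 ± 0.18, adjusted p = 2.2e-07) and a further 4.14-fold (log2 2.05 ± 0.13, adjusted p = 1.82e-05).

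*Igfbp3*, the main carrier of IGFs in the circulation after birth, was at 21.7 and 22.2 CPM at Day 2, 85.4 and 86.2 CPM at Day 7, and 147 and 122 CPM at Day 10. It rose at each step, 3.91-fold (log2 1.97 ± 0.084, adjusted p = 1.44e-07) and then 1.57-fold (log2 0.65 ± 0.08, adjusted p = 0.000311), with the Day 10 replicates further apart than the earlier pairs. *Igfbp7* was at 206 and 150 CPM at Day 2, 539 and 569.5 CPM at Day 7, and 618 and 688 CPM at Day 10. Its rise was called to Day 7 (3.11-fold, adjusted p = 6.54e-06) and not from Day 7 to Day 10 (log2 0.24 ± 0.13, adjusted p = 0.157), although both Day 10 libraries lay above both Day 7 libraries. Without either Day 2 library in the shared fit, this later difference was called (adjusted p = 0.0133 without replicate A and 0.0135 without replicate B).

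*Igfbp2* followed *Igf1* in its timing, with 65.9 and 61.8 CPM at Day 2, 118 and 122 CPM at Day 7, and 124 and 130.1 CPM at Day 10. The first step was 1.88-fold (log2 0.91 ± 0.054, adjusted p = 9.38e-07) and the second was not called (adjusted p = 0.235). *Igfbp4*, whose protein is cut by PAPPA, and *Igfbp5*, whose protein binds bone matrix, rose at both steps.

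*Igfbp4* was at 327 and 301 CPM, then 453 and 458 CPM, then 801 and 767 CPM, with log2 fold changes of 0.54 ± 0.064 (adjusted p = 7.7e-05) and 0.78 ± 0.064 (adjusted p = 4.6e-05). *Igfbp5* was at 596 and 540.4 CPM, then 897 and 798 CPM, then 1259.9 and 1110.3 CPM, with log2 fold changes of 0.58 ± 0.091 (adjusted p = 0.000446) and 0.48 ± 0.091 (adjusted p = 0.00254). The first of these was 1.18 when cells were thinned to 1000 UMIs and 0.3 on library totals without TMM (adjusted p = 0.0128). Summed, the 6 binding proteins made up 1217 and 1076 CPM at Day 2, 2100.3 and 2041 CPM at Day 7, and 2982 and 2853 CPM at Day 10, with no overlap between days.

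To assign the members to lineages, the cells of each day were clustered with the 9 members and the other IGF pathway genes removed from the clustering genes. Clusters were named from marker lists, for example chondrocyte-like for *Acan* and *Col11a2* or tenocyte-like for *Scx* and *Tnmd*, and those without a clear match kept their number. The tenocyte-like clusters had only 3 of the 6 tendon markers enriched at both Day 7 and Day 10. Of the 10 leading genes, 1 was a tendon marker at Day 7 and 2 were at Day 10. The name perichondrium-like, which the markers gave to Day 7 cluster 9, was not used because *Kif15*, *Ncapg2*, *Clspn*, *Dtl* and *Hjurp*, genes of cell division, stood among its 10 leading genes with only *Col1a1* from its list. Day 7 cluster 13, small and also led by cell division genes such as *Cdkn3* and *Ccnb2*, kept the name chondrocyte-like with 11 of 12 cartilage markers enriched. Clusters with 3 or more mitochondrial or ribosomal RNA artefact genes among the 10 leading genes also stayed unnamed, among them Day 7 cluster 0, which had 5 of the 12 cartilage markers enriched. This gave 11 classes or unnamed clusters at Day 2 (5 named), 12 at Day 7 (6 named) and 15 at Day 10 (5 named). Class values below are CPM of the UMIs summed within a class in each library, without scaling. Because the cells were grouped by other genes of the same cells, differences between classes are a description.

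Within a day, each class was set against the average of all the others. At Day 2, 62 of 99 member and class pairs (62.6%) were called, 36 higher and 26 lower, where 30.1% of all gene and class pairs were called. When cells were clustered without integration, 39.7% of member pairs were called, and the share of all pairs there is not given. *Igfbp3* in chondrocyte-like and joint interzone-like cells counts as not called, but standard errors of 1679661 and 1533148 leave these pairs without a usable test. The same holds for *Igfbp6* in cluster 7 (standard error 485). At Day 7, 72 of 108 member and class pairs (66.7%) were called, 36 higher and 36 lower, against 45.3% of all pairs. At Day 10 it was 103 of 135 pairs (76.3%), 54 higher and 49 lower, against 52.5% of all pairs.

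**Figure D2:**
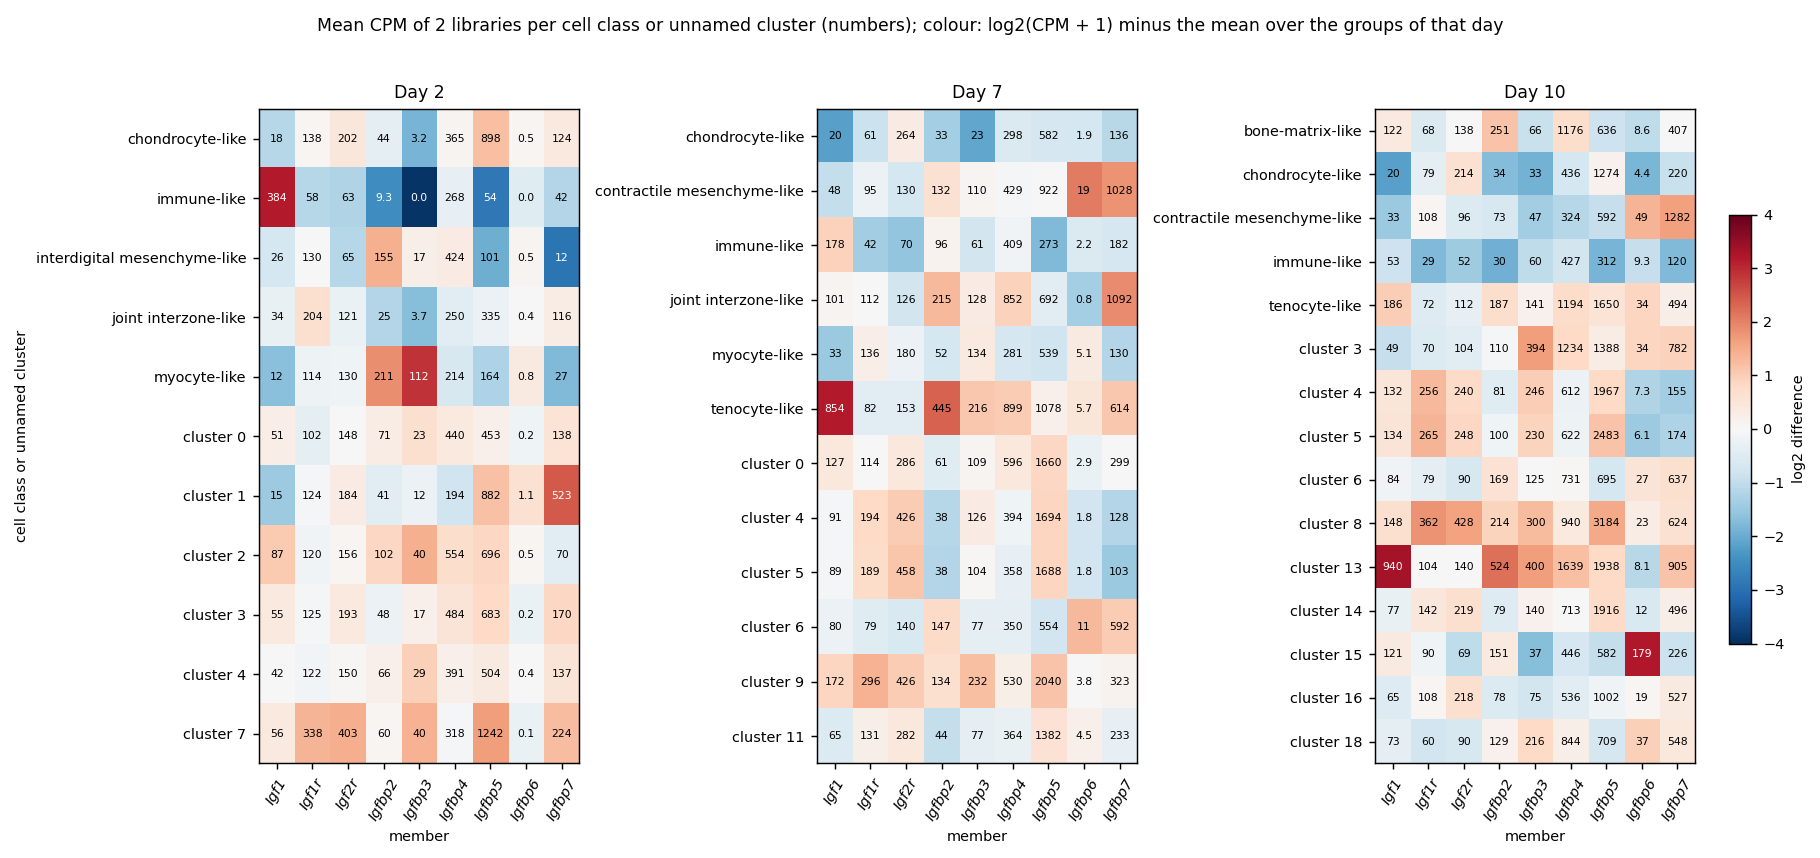
Rows are cell classes or unnamed clusters, columns are members, printed numbers are the mean CPM of the 2 libraries (1 library for immune-like cells at Day 2), and colour is the log2(CPM + 1) difference from the mean over the groups of that day. *Igf1* is deepest red in tenocyte-like cells at Day 7 (867 and 842 CPM in the replicates) and in cluster 13 at Day 10 (1005 and 876 CPM), and blue in chondrocyte-like cells at every day.

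Most *Igf1* lay outside the chondrocyte-like cells, which held at most 8.48% of its UMIs at any day. At Day 2 its largest store was cluster 2, led by *Meis2*, *Aspn* and *Meox1* and with the tendon factor *Scx* at 239.9 and 226 CPM, which held 47.3% and 40.6% of all *Igf1* UMIs on 21.1% and 20.3% of all UMIs. *Igf1* stood at 85.7 and 88.9 CPM in cluster 2, against 16.7 and 20.4 CPM in chondrocyte-like cells. Of the other tendon markers in cluster 2, *Tnmd* was at 21.9 and 23.8 CPM, *Mkx* at 12.1 and 11.9 CPM, *Fmod* at 7.96 and 8.02 CPM and *Kera* and *Thbs4* at no more than 1.25 CPM, and its closest marker list was that of contractile mesenchyme (3 of 6 enriched, none among the leading genes). The 20 immune-like cells of Day 2 replicate A, led by *C1qb* and *Tyrobp*, genes of macrophages, had the highest value, 384 CPM, but carried 2.1% of the *Igf1* UMIs. Replicate B had 8 such cells, too few for a sum.

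At Day 7, tenocyte-like cells (571 and 667 cells) were at 867 and 842 CPM and held 47.4% and 52.7% of all *Igf1* UMIs on 5.17% and 6.28% of the cultures' UMIs (log2 3.43 ± 0.12 against the other classes, adjusted p = 1.08e-17). Without them, the level of the culture before scaling dropped from 94.6 to 52.5 CPM in replicate A and from 100.3 to 50.6 CPM in replicate B. Chondrocyte-like cells were at 19.6 and 21.0 CPM. Immune-like cells were next in the mean, but their replicates differed widely, 255 and 101 CPM.

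At Day 10, the tenocyte-like cells were lower, at 195 and 177 CPM, and the highest level was in cluster 13 (248 and 253 cells), at 1005 and 876 CPM. Cluster 13 was led by *Gpha2*, *Car9* and *Scara5* and had no tendon marker among its leading genes, and its closest marker list was that of the joint interzone (3 of 7 enriched, none among the leading genes). *Scx* was at 53.9 and 41.7 CPM in cluster 13, against 48.4 and 53.6 CPM in the Day 7 tenocyte-like cells and 113 CPM in both libraries of the Day 10 tenocyte-like cells. *Tnmd* was at 95.1 and 117 CPM in cluster 13, against 106 and 103 CPM and then 73.8 and 71.8 CPM. The other 4 tendon markers in cluster 13 were *Fmod* (86.8 and 84.8 CPM), *Mkx* (18.4 and 17.1 CPM), *Thbs4* (11.4 and 27.5 CPM) and *Kera*, which had no UMI there, and *Fmod* was also at 76.4 and 67.2 CPM in the chondrocyte-like cells of that day. Together the 2 groups held 51.3% and 47.0% of the *Igf1* UMIs on 17% and 15.8% of all UMIs. Bone-matrix-like cells, led by *Ibsp* and *Ifitm5* and with 4 of 8 markers enriched, were also above the other classes (113 and 131 CPM, log2 0.52, adjusted p = 0.00042). Chondrocyte-like cells again had the lowest level, 19.6 and 20.4 CPM.

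The share of cells with at least 1 *Igf1* UMI gave the same contrast. After thinning each cell to 1000 UMIs, 45.7% and 41.5% of the Day 7 tenocyte-like cells had 1 (87.0% and 83.7% unthinned, median depth 16276 and 15827 UMIs). In Day 7 chondrocyte-like cells the thinned share was 1.87% and 1.79% (24.4% and 20.8% unthinned, median depth 24522 and 24507 UMIs), a level at which free RNA in the droplets was not told apart from expression. At Day 10 the thinned share was 39.1% and 36.8% in cluster 13 and 14.9% and 13.1% in tenocyte-like cells.

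**Figure D3:**
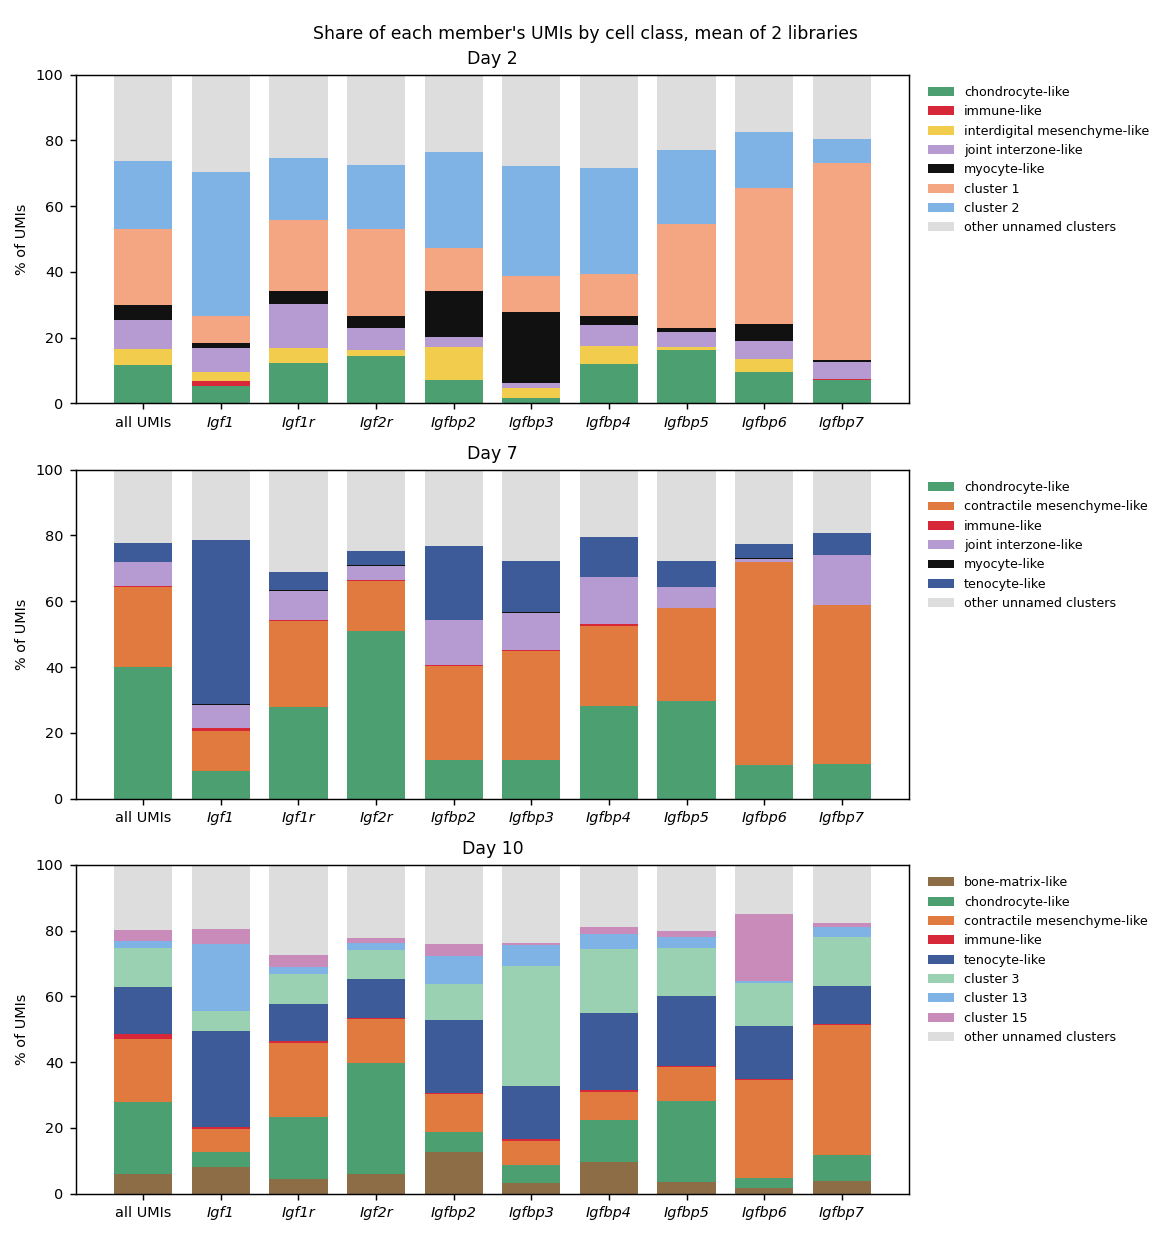
Stacked bars give the percentage of each member's UMIs that lay in each cell class (mean of 2 libraries), beside the same split of all UMIs, from 0 to 100%, for Day 2, Day 7 and Day 10. At Day 7 tenocyte-like cells carry 5.17% and 6.28% of all UMIs but 47.4% and 52.7% of the *Igf1* UMIs, and contractile mesenchyme-like cells carry 62.8% and 60.2% of the *Igfbp6* UMIs.

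At Day 2, *Igf1r* was highest among named classes in joint interzone-like cells (192 and 215 CPM, log2 0.52 ± 0.072, adjusted p = 5.31e-06), the class led by *Eomes*, *Pthlh* and *Gdf5*, and 7 of the 11 groups were not called, against 4 of 12 at Day 7 and 5 of 15 at Day 10. At Day 7 it was 62.5 and 58.9 CPM in chondrocyte-like cells, 95 and 94.6 CPM in contractile mesenchyme-like cells and 289 and 302 CPM in cluster 9. At Day 10 it was highest in cluster 8, at 357 and 366 CPM. Immune-like cells had the lowest *Igf1r* at every day, for example 26.5 and 32.1 CPM at Day 10. The groups with the most *Igf1r* were also those with many mitochondrial reads and few UMIs per cell. The median mitochondrial share was 15.9% and 9.73% in Day 2 cluster 7 (374 and 301 CPM), 19.1% and 19.2% in Day 7 cluster 9 and 19.7% in both libraries of Day 10 cluster 8. The part of cell quality in the *Igf1r* order was not tested.

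Among the named classes, *Igf2r* was highest in chondrocyte-like cells. These cells were at 198 and 207 CPM at Day 2, 279.7 and 248 CPM at Day 7 and 221 and 206 CPM at Day 10, above the other classes at each day (log2 0.47, 0.6 and 0.94). They held 50.6% and 51.5% of the *Igf2r* UMIs at Day 7, on 41.0% and 39.1% of all UMIs, but 14.2% and 14.7% at Day 2, less than cluster 1 (31.3% and 21.1%) or cluster 2 (19.8% and 19.6%), and 34.5% and 32.9% at Day 10. Unnamed clusters 4, 5, 9 and 11 lay above them in both libraries at Day 7, between 262 and 604 CPM, and cluster 0 in 1 of 2 (342 and 231 CPM). Within the class Day 7 cluster 8 was at 1014 and 822 CPM against 236 and 221 CPM in cluster 1. Interdigital mesenchyme-like cells at Day 2 were lowest among the mesenchymal classes, at 61.3 and 69.1 CPM. The groups with many mitochondrial reads were high for this receptor too, for example 451 and 404 CPM in Day 10 cluster 8, led by *Pappa* and *Mical2*.

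The leading class for *Igfbp2* and *Igfbp3* changed with the day. At Day 2, myocyte-like cells, marked by *Ttn* and *Tnnc2*, had the most of both: 219 and 203 CPM for *Igfbp2* (log2 2.33 ± 0.084, adjusted p = 3.91e-17) and 123 and 101 CPM for *Igfbp3* (log2 4.25 ± 0.13, adjusted p = 2.26e-18). They held 24.2% and 19.0% of the *Igfbp3* UMIs on 4.79% and 4.77% of all UMIs. The class joins clusters 9 and 10, and cluster 9 made up 23 of its 340 cells in replicate A and 669 of 859 in replicate B. *Igfbp2* was at 125 and 117 CPM in cluster 9 and at 221 and 227 CPM in cluster 10. *Igfbp3* was at 87.9 and 56.1 CPM and at 124 and 114 CPM in these clusters. The average behind the log2 value of *Igfbp3* takes in the 20 immune-like cells of replicate A, which had no *Igfbp3* UMI. This inflates the value, which is not to be read as a fold. The next group for *Igfbp3*, cluster 2, was at 37.4 and 42.8 CPM. *Igfbp2* was next in interdigital mesenchyme-like cells, at 147 and 163 CPM, and low in joint interzone-like cells, at 25.9 and 23.5 CPM. Chondrocyte-like cells had little *Igfbp3* at Day 2, 3.7 and 2.68 CPM.

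At Day 7, tenocyte-like cells led for *Igfbp2*, at 462 and 428 CPM, followed by joint interzone-like cells at 232 and 198 CPM, and chondrocyte-like cells were at 30.7 and 35.2 CPM. *Igfbp3* was at 281 and 182 CPM in cluster 9 and at 216 and 215 CPM in tenocyte-like cells, an order that did not hold in both replicates. At Day 10, cluster 13 had the most *Igfbp2*, 553 and 494 CPM. *Igfbp3* overlapped between cluster 13 (416 and 383 CPM) and cluster 3 (422 and 367 CPM), the highest groups, of which the latter was led by *Prg4*, the lubricin of joint surfaces, and *Hoxa13*. These 2 clusters held 42% and 43.9% of all *Igfbp3* UMIs on 13.8% of all UMIs in both libraries. Bone-matrix-like cells had 240.2 and 262 CPM of *Igfbp2*, but the sign of their difference from the other classes (log2 1.34) turned at a finer clustering (-1.11) and without integration (-1.59).

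*Igfbp4* was found in every class, with a 2.86-fold difference between the highest and the lowest at Day 2. Cluster 2 was at 585 and 524 CPM then, and tenocyte-like and joint interzone-like cells at 862 and 936 CPM and at 831 and 872 CPM at Day 7. At Day 10 *Igfbp4* was at 1729.6 and 1549 CPM in cluster 13, 1205 and 1184 CPM in tenocyte-like cells and 1154 and 1198 CPM in bone-matrix-like cells, with contractile mesenchyme-like cells lowest at 317 and 331 CPM. *Igfbp5* was high in chondrocyte-like cells at Day 2, at 875 and 921 CPM, and low in interdigital mesenchyme-like cells, at 105 and 97.9 CPM. At Day 7 the order had changed, with chondrocyte-like cells at 608 and 555 CPM, below the average of the other classes (log2 -0.51, adjusted p = 0.0301). That average takes in unnamed clusters 0, 4, 5, 9 and 11, between 1199 and 2261 CPM. Within the Day 7 class, cluster 8, which has many mitochondrial reads, was at 2248 and 2276 CPM and cluster 1 at 514 and 472 CPM. At Day 10 chondrocyte-like cells were above the average of the other classes again, at 1360 and 1189 CPM (log2 0.49, adjusted p = 0.000301). The Day 10 class was uneven, with its largest cluster, 0 (1359 and 1127 cells), at 871 and 802 CPM, below the whole cultures, and clusters 9, 10 and 11, which have many mitochondrial reads, between 3173 and 5663 CPM. The unnamed cluster 8 of Day 10, with a like mitochondrial share, was at 3326 and 3041 CPM.

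*Igfbp6* and *Igfbp7* were both above the average of the other classes in contractile mesenchyme-like cells, named at Day 7 and Day 10 only, which carry the smooth muscle genes *Acta2*, *Tagln* and *Cnn1*. At Day 7 these cells had 19.5 and 18.6 CPM of *Igfbp6* (log2 2.53 ± 0.13, adjusted p = 3.97e-15) and 62.8% and 60.2% of its UMIs on 24.1% and 24.3% of all UMIs, whereas joint interzone-like cells had 0.922 and 0.758 CPM. At Day 10 they were at 47.8 and 49.6 CPM, with 32.1% and 27.7% of the UMIs, but cluster 15, led by *Msln*, *Wnt10a* and *Cd34*, was at 149 and 209.5 CPM (log2 3.66 ± 0.11, adjusted p = 1.65e-18). Cluster 15 had 138 cells in replicate A and 312 in replicate B, and 80.4% and 88.8% of them had an *Igfbp6* UMI (10.1% and 21.5% after thinning), against 6.79% and 6.95% of chondrocyte-like cells (0.333% and 0.466% after thinning). Median depths were 38410 and 33448 UMIs in cluster 15 and 21899 and 13188 UMIs in the chondrocyte-like cells.

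*Igfbp7* was concentrated at Day 2 in cluster 1, led by *Ankrd1* and *Krt19*, with 578 and 468 CPM and 67.3% and 52.4% of its UMIs. The closest marker list of cluster 1 was that of contractile mesenchyme (5 of 6 enriched, none among the leading genes). The cluster also held 56.8% and 26.0% of the few *Igfbp6* UMIs at Day 2. *Igfbp7* was at 14 and 9.13 CPM in interdigital mesenchyme-like cells. At Day 7 joint interzone-like cells (1069 and 1115 CPM) and contractile mesenchyme-like cells (1032 and 1025 CPM) were the highest, the former above the latter in both libraries, and chondrocyte-like cells were at 136 CPM in both libraries. At Day 10 contractile mesenchyme-like cells led alone, at 1154 and 1409 CPM, with 39.3% and 40.1% of the *Igfbp7* UMIs. Myocyte-like cells at Day 2 had 29.0 and 25.4 CPM, with 264 and 82.3 CPM in their cluster 9 and 23.8 and 8.95 CPM in cluster 10.

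To ask whether the changes over time took place inside a lineage, the classes named at both Day 7 and Day 10 were compared across days, each in its own fit with its own TMM factors. Joint interzone-like and myocyte-like cells, named at Day 2 and Day 7 only, were not compared across days here. CPM of a class are unscaled, so in chondrocyte-like cells, where these factors ran from 0.866 to 1.23, folds cannot be read from the CPM, and the log2 change on library totals without TMM is given beside the fitted one. There the median of all genes moved to -0.48 from Day 2 to Day 7, 0.09 from Day 7 to Day 10 and -0.37 from Day 2 to Day 10. Chondrocyte-like cells were cluster 6 at Day 2, clusters 1, 8 and 13 at Day 7 and clusters 0, 9, 10 and 11 at Day 10, with median mitochondrial shares of 11.3% and 12% in cluster 8 of Day 7 and of 12.6% to 26% in clusters 9, 10 and 11 of Day 10. Within them, 6 members rose from Day 2 to Day 7, 1 fell and 2 were not called, where 71.2% of genes were called. From Day 7 to Day 10 again 6 rose, 1 fell and 2 were not called (38.7% of genes called), and from Day 2 to Day 10 it was 7, 1 and 1 (74.4% of genes called). On library totals, 3 members rose, 4 fell and 2 were not called from Day 2 to Day 7, with 18.5% of genes higher and 57.5% lower in place of 35.7% and 35.5%. The later step gave the same counts of members (26.8% and 12.4% of genes in place of 19.5% and 19.2%), and from Day 2 to Day 10 it was 5, 2 and 2 (23.8% and 52.6% in place of 38.0% and 36.4%). In an alternative chosen after seeing the data, the 4 clusters with over 10% of mitochondrial reads were left out, and 8, 6 and 8 members were called (72.5%, 38.8% and 76.3% of genes).

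The largest change in chondrocyte-like cells from Day 2 to Day 7 was that of *Igfbp3*, from 3.7 and 2.68 CPM at Day 2 to 23.6 and 22.6 CPM at Day 7 and 35.3 and 30.6 CPM at Day 10. The TMM-scaled fit gave log2 3.33 ± 0.13 (adjusted p = 8.33e-12) and then 0.43 ± 0.081 (adjusted p = 0.000903), against 2.84 and 0.51 on library totals, all called. *Igfbp6* was at 0.504 and 0.43 CPM at Day 2, from 12 and 9 UMIs, at 1.67 and 2.2 CPM at Day 7 and at 3.97 and 4.82 CPM at Day 10. It rose by log2 2.52 ± 0.29 (adjusted p = 1.75e-06) and then by 1.09 ± 0.15 (adjusted p = 6.86e-05), against 2.04 and 1.18 on library totals. After thinning, only 2.4% and 2.39% of the Day 7 chondrocyte-like cells had an *Igfbp3* UMI. For *Igfbp6* the thinned share was 0.0614% and 0.0995%. At such levels free RNA in the droplets was not told apart from expression, and its part in these rises was not tested.

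*Igf2r* rose to Day 7 (log2 0.87 ± 0.069, adjusted p = 2.55e-08, and 0.38 on library totals) and fell to Day 10 (-0.39 ± 0.068, adjusted p = 0.000388, and -0.31 on library totals). *Igf1r* fell on both scales (log2 -0.69 ± 0.064, adjusted p = 1.31e-07, and -1.18 on library totals) and then rose (log2 0.29 ± 0.063, adjusted p = 0.00228, and 0.38 on library totals). *Igf1*, at 16.7 and 20.4 CPM and then 19.6 and 21.0 CPM, overlapped between Day 2 and Day 7, and its call as higher (log2 0.62 ± 0.087, adjusted p = 1.26e-05) was lost on library totals (0.13, adjusted p = 0.194). It was not called from Day 7 to Day 10 (-0.11, adjusted p = 0.283, and -0.02 on library totals). The call of *Igfbp7* as higher at Day 7 (log2 0.62, adjusted p = 3.61e-06) was also lost on library totals (0.13, adjusted p = 0.142), and its later rise was called on both scales (0.6, adjusted p = 2.34e-05, and 0.69 on library totals).

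*Igfbp5* went from 875 and 921 CPM to 608 and 555 CPM at Day 7, a change that was not called after TMM scaling (log2 -0.14, adjusted p = 0.141) and was called as a fall on library totals (-0.63, adjusted p = 2.07e-06). It then rose to Day 10 (log2 1.04 ± 0.081, adjusted p = 2.52e-07, and 1.13 on library totals). Without the clusters rich in mitochondrial reads it was at 511 and 470 CPM at Day 7 and 871 and 802 CPM at Day 10, a fall to Day 7 that was called (log2 -0.36, adjusted p = 0.000424) and a smaller rise to Day 10 (0.72, adjusted p = 6.01e-06), and the later rise of *Igf1r* was not called (0.15, adjusted p = 0.0643). *Igfbp2* was not called at either step (log2 0.06 and -0.06, adjusted p = 0.565 and 0.646), but on library totals it was called lower at Day 7 than at Day 2 (-0.43, adjusted p = 0.000505), and from Day 7 to Day 10 it was at 0.03 there (adjusted p = 0.813). The direction of *Igfbp4* to Day 7 turned with the scaling: its CPM went from 386 and 344 to a mean of 298, called as a fall on library totals (-0.3, adjusted p = 0.000828) and as a small rise after TMM (log2 0.19, adjusted p = 0.02). The latter call was lost without Day 2 replicate B (0.1, adjusted p = 0.165), Day 7 replicate A (0.21, adjusted p = 0.0813) or Day 7 replicate B (0.19, adjusted p = 0.107). *Igfbp4* rose from Day 7 to Day 10 on both scales (0.46, adjusted p = 0.000115, and 0.55 on library totals).

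Contractile mesenchyme-like and tenocyte-like cells were named at Day 7 and Day 10 only. In contractile mesenchyme-like cells (clusters 2 and 10, then 2 and 12), 3 members rose and 6 fell, where 52.0% of genes were called. The members that rose were *Igfbp6* (log2 1.38 ± 0.053, adjusted p = 9.05e-08), *Igfbp7* (0.34 ± 0.08, adjusted p = 0.00504) and *Igf1r* (0.21 ± 0.049, adjusted p = 0.00474). *Igfbp3* fell most, from 104 and 115 CPM to 47.4 and 47.2 CPM (log2 -1.19 ± 0.064, adjusted p = 6.07e-07), and *Igfbp2*, *Igfbp5*, *Igf1*, *Igf2r* and *Igfbp4* fell by 0.84, 0.62, 0.52, 0.41 and 0.38 on the log2 scale.

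In tenocyte-like cells (cluster 7, then cluster 1), 3 members rose and 6 fell, where 59.1% of genes were called. *Igf1* fell 4.56-fold, from 867 and 842 CPM to 195 and 177 CPM (log2 -2.19 ± 0.058, adjusted p = 1.52e-13), while no change was called in the whole cultures. *Igfbp2* fell 2.36-fold (log2 -1.24 ± 0.086, adjusted p = 9.39e-09), and *Igfbp3*, *Igf2r* and *Igfbp7* fell by 0.6, 0.44 and 0.3 on the log2 scale. *Igfbp6* rose 6.05-fold (log2 2.6 ± 0.14, adjusted p = 3.98e-10), from 5.65 and 5.72 CPM to 37.8 and 30.4 CPM, and *Igfbp5* and *Igfbp4* rose by log2 0.62 and 0.42. For *Igf1*, *Igfbp2* and *Igfbp6*, Day 10 cluster 13 alone was nearer the Day 7 tenocyte-like cells than cluster 1 was. It was at 1005 and 876 CPM, 553 and 494 CPM, and 9.08 and 7.08 CPM. Against cluster 13, *Igf1* and *Igfbp2* showed no fall, while *Igf1r*, *Igfbp3*, *Igfbp4*, *Igfbp5* and *Igfbp7* were higher there than at Day 7. A change within the lineage cannot be told apart from a change in which cells carry its name. With cluster 13 counted as tenocyte-like at Day 10, an alternative chosen after seeing the data, the fall was -1.63 for *Igf1*, -0.98 for *Igfbp2*, -0.33 for *Igfbp3* and -0.18 for *Igfbp7*. *Igf1r* was then no longer called (-0.11, adjusted p = 0.0941). *Igf1r* also lost its call (-0.17, adjusted p = 0.0183) without Day 7 replicate B (-0.11, adjusted p = 0.214), with DESeq2 (-0.16, adjusted p = 0.127) and without the filter on low counts (-0.1, adjusted p = 0.205).

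**Figure D4:**
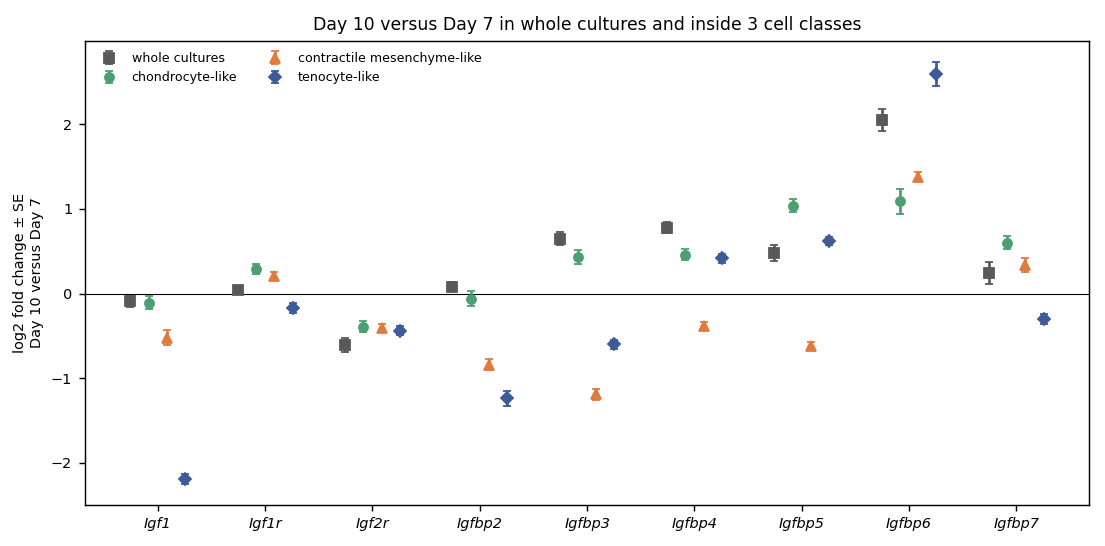
The vertical axis is the log2 fold change of Day 10 over Day 7 with its standard error for each member, in whole cultures (grey squares) and inside chondrocyte-like (green), contractile mesenchyme-like (orange) and tenocyte-like cells (blue). The 4 values lie close together for *Igf2r* and far apart for *Igf1*, from -0.09 in whole cultures to -2.19 in tenocyte-like cells.

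The difference between classes in this Day 7 to Day 10 change was tested itself, as a class by day interaction with library as a covariate over 16177 genes. Of the 9 members, 6 differed between contractile mesenchyme-like and chondrocyte-like cells, 7 between tenocyte-like and chondrocyte-like cells, and 7 between tenocyte-like and contractile mesenchyme-like cells, where 35.4%, 43.5% and 33.6% of genes were called. *Igf1* fell more in tenocyte-like cells than in chondrocyte-like cells by 2.04 on the log2 scale (SE 0.0895, adjusted p = 4.04e-11). *Igfbp5* rose in chondrocyte-like and fell in contractile mesenchyme-like cells, a difference of -1.66 (SE 0.0649, adjusted p = 1.41e-11), and *Igfbp3* did the same with a difference of -1.61 (adjusted p = 2.42e-10). *Igf2r* fell in all 3 classes and no difference in its fall was detected (-0.03, -0.01 and 0.02, standard errors of at most 0.0551, adjusted p = 0.742, 0.926 and 0.85). On library totals the fall of *Igf2r* was called larger than in chondrocyte-like cells in contractile mesenchyme-like (-0.13, adjusted p = 0.0316) and tenocyte-like cells (-0.15, adjusted p = 0.0229), where the median of all genes was -0.14 and -0.13, and 8, 9 and 8 members differed in the 3 pairs. Without the chondrocyte-like clusters rich in mitochondrial reads, 5 and 6 members differed from chondrocyte-like cells in contractile mesenchyme-like and tenocyte-like cells (28.8% and 39.6% of genes), with *Igf1* no longer called in the former (-0.32, adjusted p = 0.0617) and *Igfbp5* no longer in the latter (-0.06, adjusted p = 0.446).

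Immune-like cells (28 and 43 cells at Day 7, 118 and 163 at Day 10) had 0 of 9 members called by edgeR, where 1.18% of genes were called. At an unadjusted p under 0.05 there were 2, *Igf1* (log2 -1.72 ± 0.34, adjusted p = 0.0534) and *Igfbp2* (-1.74 ± 0.33, adjusted p = 0.051), and DESeq2 called the same 2 genes. *Igf1* was at 255 and 101 CPM at Day 7 and at 50.9 and 54.5 CPM at Day 10 in these cells. Both Day 7 libraries were above both Day 10 libraries.

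The wider IGF pathway was followed through 34 further genes, of which 31 could be tested in whole cultures (*Ins2*, *Insrr* and *Irs4* were too low). From Day 2 to Day 7, 21 rose, 8 fell and 2 were not called (median log2 0.57), from Day 7 to Day 10 it was 7, 14 and 10 (median -0.16), and from Day 2 to Day 10 it was 18, 10 and 3 (median 0.44). The shares of all genes called were the 70.3%, 52.2% and 77.3% given above, with medians of 0.01, -0.02 and 0.0. On library totals without TMM the counts were 18, 9 and 4, then 9, 14 and 8, then 16, 13 and 2, with medians of 0.29, -0.14 and 0.18. All 6 proteases and protease inhibitors on the list rose to Day 7. *Stc2*, which inhibits the IGFBP-cleaving protease PAPPA, went from 2.94 and 3.14 CPM to 36.6 and 36.7 CPM (log2 3.59 ± 0.088, adjusted p = 8e-09). *Pappa2*, a protease that cleaves IGFBP3 and IGFBP5, went from 0.156 and 0.28 CPM to 4.52 and 4.91 CPM (log2 4.45 ± 0.21, adjusted p = 2.31e-07). *Igfals*, the acid-labile subunit of the circulating complex, had the largest log2 fold change (5.69 ± 0.33, adjusted p = 8.65e-07) but rested on 3 and 2 UMIs at Day 2 and was at 0.563 and 0.683 CPM at Day 7. Without scaling, its ratio of Day 7 to Day 2 was 44.5, with an exact 95% Clopper-Pearson interval of 18.8 to 138 that covers counting error only.

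From Day 7 to Day 10, *Pappa* (log2 0.3, adjusted p = 0.00241) and *Htra1* (0.21, adjusted p = 0.0238) rose further, and *Pappa2*, *Stc2* and *Stc1* fell. *Stc1* fell most among the called genes of the list, from 8.07 and 9.73 CPM to 3.53 and 3.26 CPM (log2 -1.39 ± 0.1, adjusted p = 2.75e-05). *Grb14*, an adaptor that dampens insulin receptor signalling, rose from 16.3 and 16.1 CPM to 34.5 and 39.4 CPM (log2 1.19 ± 0.069, adjusted p = 1.19e-05). Of the growth hormone genes, *Ghr*, *Jak2*, *Stat5a* and *Stat5b* rose to Day 7 and *Socs2* fell, and of the other receptors *Insr* rose from 13.4 CPM in both replicates to 21.7 CPM in both (log2 0.7, adjusted p = 2.54e-06). At the later step *Jak2*, *Stat5b*, *Socs2* and *Insr* fell, and *Ghr* and *Stat5a* were not called.

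**Figure D5:**
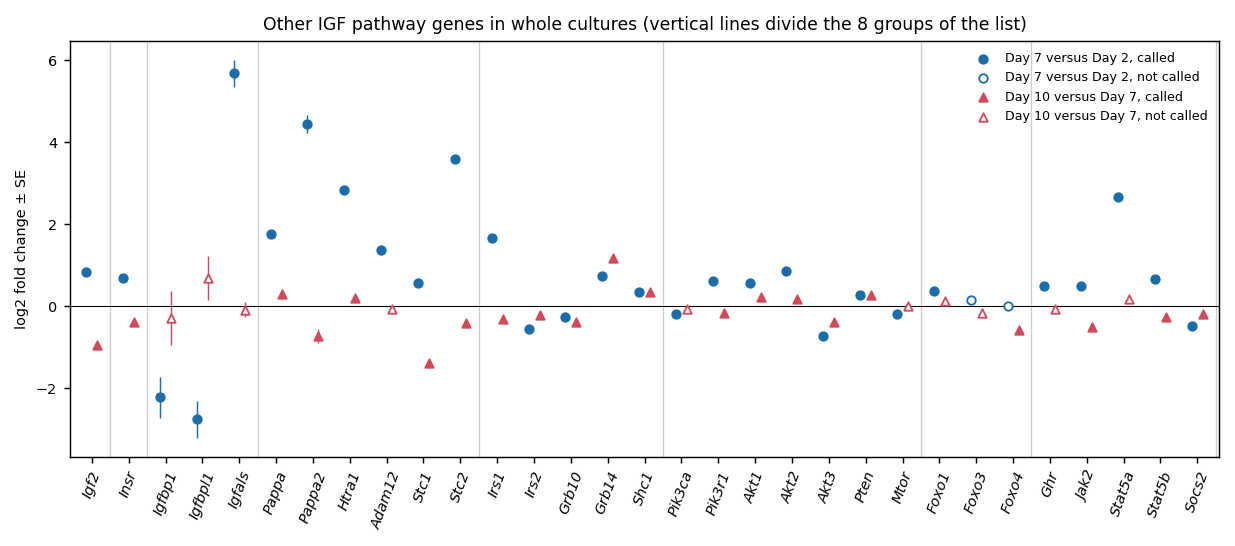
Points are log2 fold changes in whole cultures with standard errors for the 31 tested pathway genes, Day 7 against Day 2 (blue circles) and Day 10 against Day 7 (red triangles), with open symbols for genes not called and grey lines between functional groups. The protease and inhibitor group sits above 0 for the first comparison in all 6 genes, and *Igf2* is above 0 at the first step (0.83) and below it at the second (-0.93).

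To find which genes most resembled each member, log2(CPM + 1) was correlated over 91 sums of cluster and library against 8337 genes. The sums share libraries, depth and cell quality, so the values are descriptions. *Igf1* was most like *Kctd12* (r = 0.78), *Slc40a1* (0.74) and *Tgfbr2* (0.72). *Igf2r* was most like *Hyou1* (0.92), *Igf2* (0.89) and *Mia3* (0.88), and *Igf1r* like *Bmpr2* (0.9), *Arhgef12* (0.9) and *Ash1l* (0.89). *Igfbp3* came with the matrix genes *Itgbl1*, *Fndc1* and *Postn* (each 0.8), *Igfbp4* with *Il11ra1* (0.8), *Col3a1* (0.76) and *Megf6* (0.75), and *Igfbp2* with *Egfl6* (0.73), *Sgcb* (0.67) and *Olfml2b* (0.66).

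*Igfbp5* was most like *App* (0.89), *Npr2* (0.88) and *Mrc2* (0.88), *Igfbp6* like *Cdkn2a* (0.86), *Thy1* (0.85) and *Timp1* (0.85), and *Igfbp7* like *Timp2* (0.85), *Cavin3* (0.83) and *Prss23* (0.82). Between members, the highest values were 0.72 for *Igf2r* with *Igfbp5* and 0.68 for *Igf1r* with *Igf2r*, both high in the groups with many mitochondrial reads. *Igf1* with its receptor *Igf1r* gave 0.01, and *Igfbp2* with its neighbour *Igfbp5* also gave 0.01.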

How the data were processed

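Droplet libraries (10x Genomics 3′ chemistry) of 2 independent DID cultures at each of Day 2, Day 7 and Day 10 were used. The authors aligned reads to GRCm38 with STAR within Cell Ranger 6.1.2, and the deposited matrices hold UMI counts per gene and barcode, unnormalized. The 91215 barcodes were reduced to 72099 cells with the study's limits on UMIs, genes, mitochondrial and ribosomal reads. No doublet caller was run; an alternative left out the deepest 5% of cells.

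UMIs were summed per library and tested with edgeR 4.0.16 (R 4.3.3; filterByExpr, TMM factors, quasi-likelihood, all 6 libraries in 1 fit, Benjamini-Hochberg over all 18987 genes, adjusted p under 0.05). The common biological coefficient of variation was 0.0689. Cells were clustered per day with Seurat 5.3.0 (SCTransform 0.4.2, anchor integration, resolution 0.5 at Day 2 and Day 7 and 0.7 at Day 10) without the 43 IGF genes. A cluster took the name of the marker list with the highest mean log2 difference among lists with at least 3 enriched markers (limma 3.58.1, log2 over 0.25) if at least 1 of its markers stood among its 10 leading genes and no other list had as many there. Clusters with 3 or more mitochondrial or ribosomal RNA artefact genes among the leading genes, and Day 7 cluster 9 for its leading genes, were left unnamed. This rule and these exceptions were set after the leading genes had been seen, so names may differ from the study's. Sums of at least 10 cells were compared between classes, and of at least 20 cells between days within a class, with the library as a covariate between classes. The comparison between days was planned for classes named at all 3 days and extended, after seeing the data, to those named at Day 7 and Day 10.

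The members were named in whole cultures and within chondrocyte-like, contractile mesenchyme-like and tenocyte-like cells, and in part elsewhere. Of the pathway list, the 3 called genes of largest change and *Igf2* were to be named, and *Pappa*, *Htra1*, *Insr* and the other genes named by direction were added after their values were seen. The members and all lists were chosen with earlier results of these data known. In simulated counts, 100% of genes changed by log2 1 and 93% of those changed by 0.5 were recovered between days (18557 genes, 10 false calls of 18357), and 100% and 94% between classes (14653 genes, 9 false calls of 14453). The simulations changed only 100 genes for each step size, none of them at low counts. They used the common biological coefficient of variation for every gene and classes of equal size. They do not cover genes near the floor, small classes or days between which most genes change. Alternatives were DESeq2 1.42.0, no filter, thinned cells, other clusterings, library totals without TMM (added after seeing the data) and leaving out each library. No pairing of the cultures by replicate letter was detected.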

Additional observations from a re-analysis of the deposited data

Results flagged for a closer look

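The Day 10 against Day 7 change of a member differed between cell classes in 20 of the 27 tests of class by day interaction (edgeR, adjusted p under 0.05 over all genes tested), where 35.4%, 43.5% and 33.6% of all genes were called in the 3 pairs of classes, in the order below. Each value below is the difference of the log2 changes, first class minus second. For contractile mesenchyme-like minus chondrocyte-like cells, *Igf1* differed by -0.42, *Igfbp2* by -0.8, *Igfbp3* by -1.61, *Igfbp4* by -0.84, *Igfbp5* by -1.66 and *Igfbp7* by -0.27. For tenocyte-like minus chondrocyte-like cells, *Igf1* differed by -2.04, *Igf1r* by -0.42, *Igfbp2* by -1.16, *Igfbp3* by -0.98, *Igfbp5* by -0.38, *Igfbp6* by 1.55 and *Igfbp7* by -0.87. For tenocyte-like minus contractile mesenchyme-like cells, *Igf1* differed by -1.62, *Igf1r* by -0.33, *Igfbp3* by 0.63, *Igfbp4* by 0.84, *Igfbp5* by 1.28, *Igfbp6* by 1.26 and *Igfbp7* by -0.59. Without the chondrocyte-like clusters of over 10% mitochondrial reads, *Igf1* in the first pair (-0.32, adjusted p = 0.0617) and *Igfbp5* in the second (-0.06, adjusted p = 0.446) were not called. On library totals without TMM, 8, 9 and 8 of the 9 members were called in the 3 pairs, where 34.5%, 42.4% and 31.7% of all genes were. The tenocyte-like values were taken without Day 10 cluster 13, and the test was added after the classes had been seen. Clusters of different days were made separately, so a change within a class cannot be told apart from a change in which cells carry its name.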

How the results depend on the processing

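Of 1130 checks of single members under other settings, 1076 kept their direction and, where a test was possible, their side of the threshold. Of the rest, 11 reversed, 19 lost and 24 gained a call, and of 166 counts, 155 stayed within 1.5 times. Between classes, leaving out a library left no replicate to test with, so those checks could show direction only. Thinning cells to 1000 UMIs lowered the genes called from 13342 to 7977 (Day 7 against Day 2), from 9913 to 3487 (Day 10 against Day 7) and from 14670 to 8719 (Day 10 against Day 2), and turned *Igf1r* to 0.07 and 0.09 in the comparisons with Day 2 and raised the *Igfbp5* change to Day 7 from 0.58 to 1.18. At Day 2, clustering without integration left 39.7% of member and class pairs called in place of 62.6%, and the share of all pairs there is not given. Other reversals were *Igfbp4* in interdigital mesenchyme-like cells when a library was left out (-0.02 without Day 2 replicate B, 0.66 without replicate A), *Igf1r* in myocyte-like cells of Day 7, not called in the first place (-0.51 without Day 7 replicate B, 0.75 without replicate A), *Igfbp7* in chondrocyte-like cells of Day 2 at a coarser clustering (-0.02) and *Igfbp2* in bone-matrix-like cells at a finer clustering (-1.11) or without integration (-1.59). On library totals without TMM, *Igf2r* in whole cultures from Day 2 to Day 10 (-0.24) and, in chondrocyte-like cells, *Igfbp2* from Day 2 to Day 10 (-0.4) and to Day 7 (-0.43) and *Igfbp4* to Day 7 (-0.3) turned to lower. The causes were not tested. Where 1 library of a day was left in a comparison between days, it was assumed to vary like the others. In immune-like cells, 2 members were called by DESeq2, 3 without the filter, 2 with the replicate block and 2 to 4 when a library was left out, against 0. With the replicate letter as a block in whole cultures, 9, 5 and 8 members and 13135, 9607 and 14524 genes were called. Deviations of same-lettered libraries correlated at -0.0265, -0.09 and -0.0785, so no pairing by letter was detected. The labels do not say whether same-lettered cultures were seeded together. With n = 2 per day, *Igfbp6* at Day 2 in whole cultures rests on only 162 and 77 UMIs.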
